A study of Homo sapiens with 4 samples.

Results

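Zeb1 was compared with an empty vector in MCF10A cells, a non-tumour human mammary epithelial line, with 1 library in each group. Both groups had been infected with lentivirus from the vector pHIV-ZsGreen, either empty or carrying Zeb1, and the ZsGreen-fluorescent cells were sorted on day 6. The medium of all groups held horse serum, epidermal growth factor, cholera toxin and insulin. The series also holds 1 library with Snail and 1 with Ovol2, made in the same way, whose values are given beside some genes below. The labels do not say which species the Zeb1 insert came from, or whether an infection was repeated. Expression was given as FPKM, a fragment count normalised to transcript length and to the number of mapped fragments. Rows of one gene symbol were summed, and 11922 of 25317 symbols were kept because they reached 1 FPKM in at least 1 of the 2 libraries. Differences are log2((Zeb1 + 1)/(empty vector + 1)), which understates the change of genes with low values. Pairs of FPKM values below are written as empty vector against Zeb1.

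ZEB1 is a zinc finger and homeodomain transcription factor that binds E-boxes with the core CACCTG in promoters and enhancers. In epithelia it is best known as a repressor of CDH1, which encodes the adherens junction protein E-cadherin, and of polarity and trafficking genes. Epithelial cells keep it low through microRNAs of the miR-200 family, and ZEB1 in turn represses those microRNA genes. Its induction is one of the known triggers of the epithelial-mesenchymal transition, in which epithelial junctions are lost and a fibroblast-like matrix programme appears.

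With 1 library in a group there was no spread between replicates to test against, so no p-value is given, and "higher" or "lower" below means by 2-fold or more on the scale above, unless a value is printed. The gene delivered was checked first. ZEB1 stood at 0.260 and 17.3 FPKM, against 0.536 with Snail and 0.0380 with Ovol2. CDH1 stood at 60.4 against 9.99 FPKM and RAB25, a small GTPase of apical recycling, at 28.8 against 3.47. FN1, which encodes fibronectin, stood at 92.7 against 3982 FPKM and DCN, which encodes the matrix proteoglycan decorin, at 11.1 against 604. The control cells carried the basal mammary keratins at high levels, with KRT17 at 5736 and KRT5 at 2929 FPKM. The RNA came from all sorted cells together, so fewer cells with a transcript and less of it per cell cannot be told apart. The steps between low FPKM values of genes with a single transcript put the depth at about 29100000 fragments for the empty vector and 34300000 for Zeb1. By that estimate 1 FPKM on a transcript of 1 kilobase was about 29 and 34 fragments. It took the commonest step as 1 fragment, used full transcript lengths and searched a set range of steps only, so it is rough.

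Of the 11922 genes, 539 (4.52%) were higher and 1012 (8.49%) were lower with Zeb1. Among large differences the balance was different. At 4-fold the counts were 113 higher and 111 lower, at 8-fold 43 and 3, and at 16-fold 16 and 0. The 3 genes lower by 8-fold or more were S100A14, KRT15 and FXYD3. The median log2 ratio of all kept genes was -0.087, and the sign of small differences depended on the scaling. Higher genes were 34.8% of the genes past 2-fold on the deposited scale. They were 50.1% after centring on the median of genes at 5 FPKM or more, which lay at -0.14. They were 61.9% when both libraries were scaled to the same total without RMRP, RPPH1 and the 10 highest genes of each library, which moved the median to 0.18. Families are therefore read below against these shifts, and a family whose median changes sign between scalings is given by its members and counts.

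**Figure D1:**
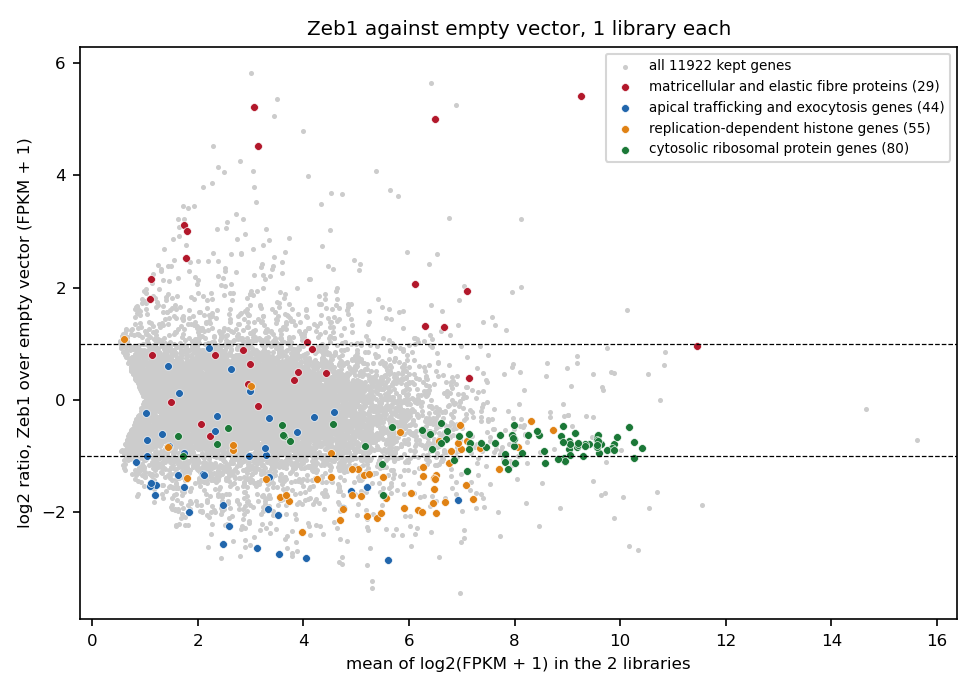
Log2 ratio of Zeb1 over empty vector (vertical) against the mean log2(FPKM + 1) of the 2 libraries (horizontal) for all 11922 kept genes, with 4 families coloured and dashed lines at 2-fold. Matricellular genes reach log2 ratios above 5, apical trafficking and histone genes lie mostly below the lower line, and ribosomal protein genes form a narrow band centred at -0.77.

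Near-complete switches were nearly all in one direction. Under 0.5 FPKM with the empty vector and at 5 FPKM or more with Zeb1 were 24 genes, and 3 genes had the opposite pattern. Matrix genes were the main group of the 24: COL3A1, FBN1, VCAN, DPT, ABI3BP, SMOC1, OLFML3, WISP2 and COL5A3, with HAS2, ADAMTS5, PAPPA and TNFAIP6 that make, cut or modify matrix. DPT, which encodes dermatopontin, was listed at 0 with the empty vector and at 9.98 FPKM with Zeb1. Others had no tie to matrix. NRCAM, a neuronal cell adhesion molecule, stood at 0.379 against 21.97 FPKM. ABCA8, a lipid transporter, stood at 0.153 against 14.9, and FPR1, the receptor for formylated peptides on phagocytes, at 0.150 against 11.6. LPHN3, an adhesion G protein-coupled receptor, stood at 0.0758 against 10.5 FPKM and PPP1R3C, a glycogen-targeting phosphatase subunit, at 0.140 against 7.57. The long noncoding RNAs LINC00968 and LINC01583 stood at 0.0921 against 9.21 and at 0.0669 against 8.04 FPKM. The other members were MEX3B, SMCO3, LOC101929579 and ZEB1. The 3 genes that were nearly silent with Zeb1 were HBEGF, a growth factor of the EGF family, at 5.47 against 0.384 FPKM, KRT6B, a stress keratin, at 5.54 against 0.381, and SPRR1B, a cornified envelope precursor, at 5.66 against 0.447. With Ovol2, in the same order, these genes stood at 26.3, 68.2 and 391 FPKM, above the empty vector in each case.

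**Figure D2:**
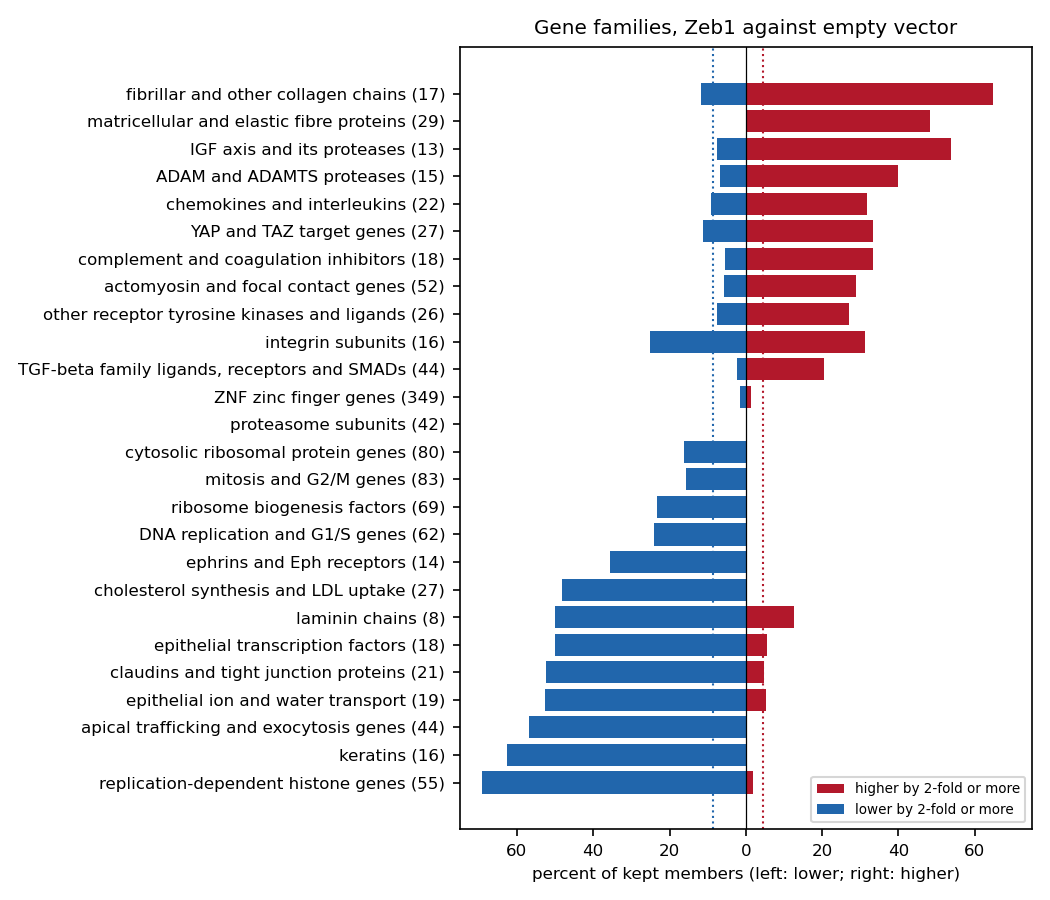
Percent of kept members (number in brackets) of 26 gene families that were higher (right, red) or lower (left, blue) by 2-fold or more with Zeb1. Dotted lines mark the shares of all kept genes, 4.52% higher and 8.49% lower; 11 of 17 collagen chains lie to the right and 38 of 55 histone genes to the left.

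Among epithelial genes the widest block was apical membrane trafficking, exocytosis and their coexpressed partners: 44 of 55 listed genes were kept, 25 were lower, none was higher on the deposited scale, and the median log2 ratio was -1.32. Of the 44, 11 were under 1 FPKM with Zeb1, 8 of them lower, and so could not have been counted as higher. Like the other lists, this list was chosen with earlier results of these data known, so its count is a description. SYT8, a synaptotagmin of vesicle fusion, stood at 129 against 16.996 FPKM. LAD1, a coexpressed partner that encodes the basement membrane anchoring protein ladinin, stood at 43.1 against 5.25. AP1M2, the epithelial adaptor subunit that sorts cargo to the basolateral membrane, stood at 20.7 against 2.49, and MAL2, needed for transcytosis to the apical surface, at 12.5 against 1.28. PRSS8 and ST14, which encode the membrane proteases prostasin and matriptase, stood at 12.1 against 1.75 and at 39.7 against 7.68 FPKM. Their inhibitors SPINT1 and SPINT2 were lower too, at 51.4 against 12.8 and 226 against 64.7 FPKM. All 4 parts of this protease system were thus lower together, while TFPI, the Kunitz inhibitor of tissue factor, was higher at 9.53 against 52.1.

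Water and ion handling was lower in 10 of 19 kept genes. Of these 10, 4 were under 1 FPKM with Zeb1 and so could not have been counted as higher. FXYD3, a regulatory subunit of the sodium pump, stood at 119 against 11.9 FPKM and AQP3, a water and glycerol channel, at 39.3 against 6.58. The epithelial sodium channel subunits SCNN1A and SCNN1G stood at 52.4 against 20.4 and at 4.33 against 0.793 FPKM. The pump's beta subunit ATP1B1 was the one member that was higher, at 24.1 against 155 FPKM, and its alternative ATP1B3 stood at 139 against 68.3. Subunits of one pump thus lay on opposite sides, ATP1B3 with a log2 ratio of -1.02. Among gap junction genes GJB5, a connexin of stratified epithelia, stood at 23.5 against 5.702 FPKM, while GJC1 stood at 2.36 against 2.99 and PANX1 at 14.6 against 17.2.

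Tight junction genes were lower in 11 of 21 kept members and higher in 1. Of the 11, 3 were under 1 FPKM with Zeb1 and so could not have been counted as higher. CRB3, an apical polarity determinant, stood at 8.57 against 1.39 FPKM, MARVELD3, a strand protein, at 5.08 against 0.575, and CLDN1, the most abundant claudin, at 252 against 63.4. The member that was higher was MPDZ, a scaffold with many PDZ domains, at 2.35 against 6.34. Desmosomes were split, 6 of 12 kept genes lower and 3 when scaled to the total without the highest genes. PKP3, PERP, EVPL, DSG3, JUP and DSP were lower, from 35.4 against 7.001 FPKM for the plaque protein PKP3 to 142 against 66.2 for desmoplakin. DSC2, DSG2 and PKP2 stood at 33.3 against 33.02, 61.6 against 52.3 and 9.97 against 9.83 FPKM, log2 ratios between -0.23 and -0.010. Nectins were split as well: PVRL1, the epithelial nectin-1, stood at 11.5 against 2.63 FPKM and PVRL3, nectin-3, at 1.57 against 6.99.

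Regulators of epithelial identity were lower in 9 of 18 kept genes. TP63, the master factor of basal epithelium, stood at 23.9 against 4.06 FPKM, GRHL2, a grainyhead-like factor of junction genes, at 14.5 against 2.26, ELF3 at 11.4 against 1.66 and OVOL2 at 6.32 against 0.563. The splicing regulators ESRP1 and ESRP2, which select epithelial exons, stood at 22.4 against 3.51 and at 11.5 against 1.91 FPKM. QKI, a splicing factor raised in mesenchymal cells, stood at 5.09 against 12.002. The other 18 kept splicing regulators lay within 2-fold, among them RBM47 at 2.03 against 0.703 and RBFOX2 at 14.3 against 20.4. With a pseudocount of 0.1 FPKM RBM47 too was past 2-fold. TBX3 went against the other epithelial factors, at 1.25 against 5.32 FPKM.

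Among the mesenchymal factors listed, 8 of 33 kept genes were higher. Of these 8, 5 were under 1 FPKM in the control, among them the delivered ZEB1, and so could not have been counted as lower. ZEB2, the paralogue of ZEB1, stood at 0.523 against 4.39 FPKM, RUNX2, a bone and cartilage factor, at 0.313 against 4.73, and TWIST1 at 5.45 against 13.996. SNAI2 stood at 40.9 against 59.1 FPKM, within 2-fold, and SNAI1 at 0.152 against 0.436, below the filter in both libraries. HMGA1 and ETS2 were lower, at 27.4 against 7.05 and 62.8 against 19.5 FPKM. The 8 kept HOX genes lay within 2-fold, except 1 when scaled to the total without the highest genes, with log2 ratios from 0.083 to 0.78.

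The promoters of lower genes were read for the ZEB1 core. Promoters of 250 bases before the transcription start came from RefSeq (build GRCh38.p14), and 9325 of the 11922 kept genes had one, 625 of them through an older symbol. The 6 promoters below held the most CACCTG matches on either strand among the eligible promoters of the 40 lowest genes. A match on the other strand reads CAGGTG, and ties were broken by the lower log2 ratio. Of the 40 genes 21 had a promoter, and genes on the chromosome that carries MAL2 were left out of this choice. A gene that was not eligible may hold as many matches or more. Capitals mark the matches, and each sequence runs 5′ to 3′ on the gene's strand and ends at the base before the start. They show how close such a core can lie to the start of genes that were lower with Zeb1.
AP1M2, chr19:10587313-10587562, minus strand: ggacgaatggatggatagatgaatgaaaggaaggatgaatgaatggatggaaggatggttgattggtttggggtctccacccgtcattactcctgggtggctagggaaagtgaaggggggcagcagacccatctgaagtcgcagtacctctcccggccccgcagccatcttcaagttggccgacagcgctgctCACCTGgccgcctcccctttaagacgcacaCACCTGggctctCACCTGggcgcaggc
LAD1, chr1:201399325-201399574, minus strand: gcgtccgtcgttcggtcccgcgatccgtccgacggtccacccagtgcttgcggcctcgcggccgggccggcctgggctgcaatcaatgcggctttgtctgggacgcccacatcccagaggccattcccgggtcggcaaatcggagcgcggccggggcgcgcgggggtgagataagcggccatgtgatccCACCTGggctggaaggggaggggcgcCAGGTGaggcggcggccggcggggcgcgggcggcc
ANKRD30BL, chr2:132161956-132162205, minus strand: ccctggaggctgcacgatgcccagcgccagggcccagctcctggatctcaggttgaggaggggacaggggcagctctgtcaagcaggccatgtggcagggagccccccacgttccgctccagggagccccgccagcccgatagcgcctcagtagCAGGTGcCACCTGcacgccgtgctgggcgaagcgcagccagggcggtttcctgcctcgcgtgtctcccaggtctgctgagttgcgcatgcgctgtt
S100A14, chr1:153616326-153616575, minus strand: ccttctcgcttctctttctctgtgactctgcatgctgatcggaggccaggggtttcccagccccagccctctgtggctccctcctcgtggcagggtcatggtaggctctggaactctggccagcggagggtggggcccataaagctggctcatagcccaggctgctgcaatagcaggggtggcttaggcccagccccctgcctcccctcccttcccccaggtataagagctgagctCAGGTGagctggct
SFN, chr1:26862899-26863148, plus strand: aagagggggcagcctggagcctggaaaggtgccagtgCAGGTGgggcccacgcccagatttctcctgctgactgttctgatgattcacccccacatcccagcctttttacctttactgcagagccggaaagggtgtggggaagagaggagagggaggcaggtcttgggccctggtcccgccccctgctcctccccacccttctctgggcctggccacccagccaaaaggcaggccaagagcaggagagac
RAB25, chr1:156060910-156061159, plus strand: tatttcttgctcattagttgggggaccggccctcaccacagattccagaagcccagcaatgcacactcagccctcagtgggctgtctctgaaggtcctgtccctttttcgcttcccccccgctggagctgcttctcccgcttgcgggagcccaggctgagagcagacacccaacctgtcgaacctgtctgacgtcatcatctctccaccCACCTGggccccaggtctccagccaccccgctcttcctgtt

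AP1M2 held 3 matches, whose first bases lay 57, 27 and 15 bases before the start, and its transcript stood at 20.7 against 2.49 FPKM. The LAD1 promoter held 2, at 61 and 35 bases. ANKRD30BL held 2 that lay side by side, at 96 and 89 bases, and stood at 306 against 54.9 FPKM. The MIR663B row had nearly the same values, 305 against 52.1 FPKM, and whether both rows count the same reads was not tested. S100A14, a calcium-binding protein with the lowest log2 ratio of all (-3.44), held 1 match 14 bases before the start. RAB25 held 1 at 41 bases. SFN, which encodes the epithelial 14-3-3 protein stratifin and stood at 248 against 35.1 FPKM, held 1 at 213 bases. The first bases transcribed after the LAD1 start were not found in a GENCODE transcript of that gene, while those of the other 5 were.

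Across all genes the share of promoters with the core was largest among the genes that stood lowest with Zeb1. It was 17.5% of all 27305 promoters in the table and 14.8% of 8255 genes within 2-fold. It was 24.7% of 655 genes lower by 2-fold and 40% of 60 genes lower by 4-fold. Among genes higher by 2-fold it was 10.4% of 415. Of the 21 promoters found for the 40 lowest genes 10 held it, and so did 6 of 26 for the 40 highest (23.1%), also a larger share than among genes within 2-fold. A related E-box, CACGTG, differed less, at 9.31%, 9.22% and 6.75% of lower genes, genes within 2-fold and higher genes. CAGCTG stood at 13.3%, 11.9% and 14.7%. Any E-box, CANNTG, which includes all of these, was found in 59.1%, 52.1% and 53.98%. The median GC content was 65.2% in lower genes, 65.2% in genes within 2-fold and 63.6% in higher genes. The excess over genes within 2-fold was present in each of 3 equal groups of genes by their empty vector level, with 37.1% against 17.2% in the group of lowest level and 21.4% against 13.4% in the highest. These are shares of genes in 1 comparison, given as a description, and a match is not a binding site.

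**Figure D3:**
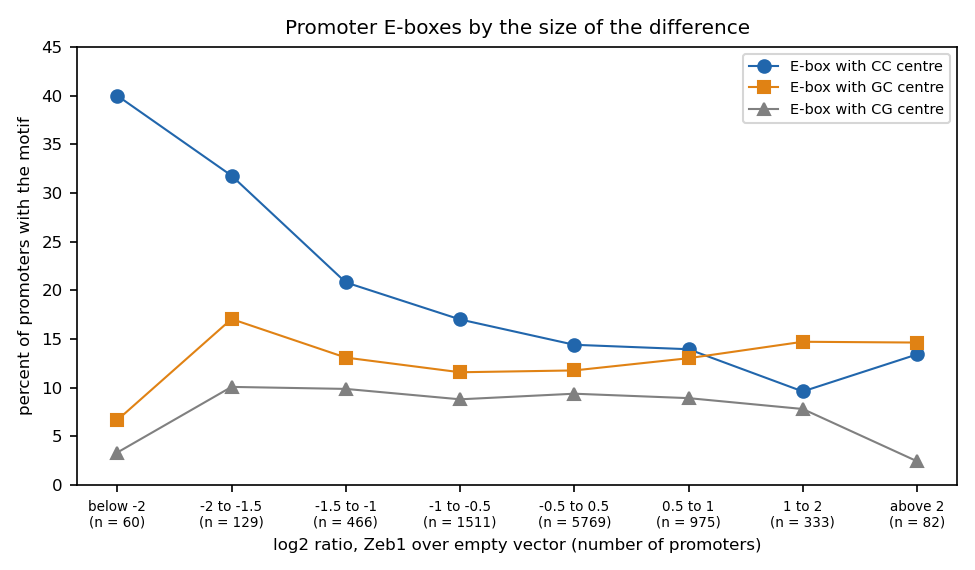
Percent of promoters (250 bases before the start) with each of 3 E-boxes, by range of the log2 ratio of Zeb1 over empty vector, with the number of promoters under each range. The core with CC at its centre (CACCTG) falls from 40% of promoters below -2 to 9.61% between 1 and 2 and is 13.4% above 2, while the GC form (CAGCTG) and the CG form (CACGTG) stay under 18% in every range.

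Lower families differed in how often they held the core, with 15.3% of all kept genes as the background. Among epithelial lists it lay in 16 of 35 promoters of apical trafficking genes and their coexpressed partners, 7 of 13 of S100 genes and 5 of 7 of cornified envelope genes. Some other epithelial lists lay closer to that background: 2 of 12 for transcription factors, 3 of 15 for tight junctions and 1 of 6 for membrane serine proteases. Splicing regulators held it in 0 of 15. Further ones lay above the background: 1 of 4 for keratins, 3 of 8 for desmosomes, 3 of 9 for cadherins, catenins and nectins and 4 of 15 for ion and water transport. The same held for mucins and luminal secretory genes, 3 of 4, and basal mammary markers, 5 of 8. Among growth families the counts were 0 of 47 for histones, 5 of 58 for ribosome biogenesis factors, 6 of 53 for replication, 10 of 69 for mitosis, 9 of 69 for mitochondrial ribosomal proteins, 9 of 65 for the respiratory chain and 6 of 37 for the proteasome. Cytosolic ribosomal protein genes held it in 4 of 64 and cholesterol synthesis genes in 4 of 21. Lists with more higher than lower members differed as well, so a large share was not particular to lower families. The core lay in 5 of 12 promoters of the IGF axis, 4 of 12 of complement and coagulation inhibitors and 6 of 19 of other receptor kinases and ligands. For collagens the count was 3 of 12, for matricellular genes 3 of 24, for actomyosin genes 5 of 43 and for the TGF-beta family 1 of 39. The lists are small and were not tested.

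Keratins, the intermediate filaments of epithelia, were lower in 10 of 16 kept genes. KRT15, a marker of quiescent basal cells, stood at 125 against 11.2 FPKM and the abundant KRT17 at 5736 against 1571. With Snail KRT15 stood at 11.1, close to its level with Zeb1, whereas KRT17 stood at 4972. Of 13 kept S100 genes, which encode small calcium-binding proteins, 6 were lower and 1 higher. S100A2 stood at 3254 against 508 FPKM and S100A9 at 16.5 against 2.12, while S100A4, linked to cell motility, stood at 34.03 against 331 and S100A6 at 1367 against 2468. S100A4 was also high with Ovol2, at 505 FPKM. Of the late keratinocyte genes 9 of 14 kept members were lower, 4 of them to under 1 FPKM. TGM2, the tissue transglutaminase that crosslinks matrix, was the one that was higher, at 1.36 against 20.9 FPKM.

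The extracellular matrix was prominent at the top, and 12 of the 40 highest genes were matrix genes of the lists of collagens, their enzymes, proteoglycans and matricellular proteins. Of 44 collagen chains 17 were kept, 11 were higher and 2 lower. Of those higher, 5 were under 1 FPKM in the control and so could not have been counted as lower. COL8A1, a short-chain collagen of vessels, stood at 6.46 against 94.1 FPKM, COL1A1 at 3.49 against 25.04 and the basement membrane chain COL4A1 at 31.7 against 96.1. COL17A1, the transmembrane collagen of hemidesmosomes, was lower at 192 against 36.6, as was COL16A1 at 8.89 against 2.06. Of 29 kept matricellular and elastic fibre genes 14 were higher and none was lower, and 7 of these were under 1 FPKM in the control. FBN1, which encodes the microfibril protein fibrillin, stood at 0.377 against 50.3 FPKM, WISP1 at 0.851 against 41.4 and CCDC80 at 69.1 against 269. TGFBI, the most abundant of them in the control, stood at 1999 against 3909. FN1 alone made up 0.0248% of all FPKM with the empty vector and 1.37% with Zeb1.

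Of 19 kept enzymes that mature collagen 5 were higher, 7 after centring and 8 when scaled to the total without the highest genes. PLOD2, a lysyl hydroxylase, stood at 65.6 against 229 FPKM and the crosslinking oxidases LOX and LOXL2 at 33.2 against 101 and at 9.700 against 24.1. LEPREL1, a prolyl hydroxylase, was lower at 64.7 against 14.8. Proteoglycans differed in kind, 8 of 18 kept genes higher, 5 of them from under 1 FPKM, and 2 lower. SDC1 and GPC1, epithelial cell surface heparan sulphate proteoglycans, stood at 155.7 against 31.3 and at 28.3 against 11.1 FPKM. VCAN, the secreted chondroitin sulphate proteoglycan versican, stood at 0.235 against 21.01, GPC6 at 1.43 against 10.2, and HAS2, a hyaluronan synthase, at 0.0112 against 8.44. LUM, which encodes lumican, stood at 0.763 against 71.5 FPKM, and with Snail at 1.93.

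Laminins and matrix receptors were split between epithelial and other members. Of 8 kept laminin chains 4 were lower and 1 higher. LAMA3 and LAMB3, of epithelial basement membranes, stood at 98.5 against 34.3 and at 273 against 85.8 FPKM. LAMA5 was lower too, at 49.8 against 10.2. LAMB2 and LAMC1 stood at 47.6 against 102 and at 44.8 against 89.3 FPKM, log2 ratios of 1.08 and 0.98. Of the integrins, the hemidesmosome pair ITGA6 and ITGB4 stood at 248.6 against 80.6 and at 134.3 against 39.8 FPKM, and ITGB6 at 86.5 against 19.7. The fibronectin receptor subunit ITGA5 was higher at 32.5 against 139, ITGAV, which also binds fibronectin and vitronectin, at 75.97 against 192, and the collagen receptor subunit ITGA1 at 10.1 against 35.2. ITGA2, also a collagen receptor subunit, was lower at 8.09 against 2.76. Thus 5 of 16 kept subunits were higher and 4 lower. Of the 5, 2 were under 1 FPKM in the control and so could not have been counted as lower.

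Secreted proteases and the IGF axis were among the largest differences. Insulin-like growth factors are held by binding proteins, which the protease pregnancy-associated plasma protein A (PAPPA) cuts and stanniocalcins restrain. IGFBP3 stood at 18.2 against 735 FPKM, IGFBP4, the main substrate of PAPPA, at 0.592 against 29.3, PAPPA itself at 0.0235 against 22.6 and its inhibitor STC2 at 1.09 against 19.8. The protease, a substrate and an inhibitor were thus higher together. With Snail the values were 92.9 for IGFBP3, 0.962 for IGFBP4, 0.210 for PAPPA and 1.58 for STC2, and both comparisons share the empty vector library. The adaptor IRS2 stood at 3.69 against 17.7 FPKM, and IGFBP2 was lower at 4.22 against 0.551. Of the 13 kept genes of the axis 7 were higher, 4 of them from under 1 FPKM.

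ADAMTS1, a protease that cuts versican, stood at 0.885 against 61.6 FPKM, and 6 of 15 kept genes of its family were higher, 4 of them from under 1 FPKM. ADAM15 was the one that was lower, at 83.5 against 29.3. Matrix metalloproteinases differed both ways: MMP2, a gelatinase, stood at 3.06 against 19.9 FPKM and MMP28, a keratinocyte enzyme, at 33.8 against 9.06, while MMP14, the most abundant, stood at 113 against 69.1, within 2-fold. TIMP2 and TIMP1 were higher, at 12.4 against 39.9 and 9.63 against 22.98 FPKM, and TIMP3 lower, at 52.2 against 24.4. In plasminogen activation PLAT and SERPINE2 were higher, at 2.59 against 23.4 and 1.02 against 33.1 FPKM. SERPINE2 encodes an inhibitor of PLAT and of the urokinase PLAU, and PLAU stood at 33.8 against 34.3. SERPINB5 and SERPINB13, intracellular serpins of keratinocytes, were lower at 250.4 against 98.1 and 12.5 against 2.498.

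**Figure D4:**
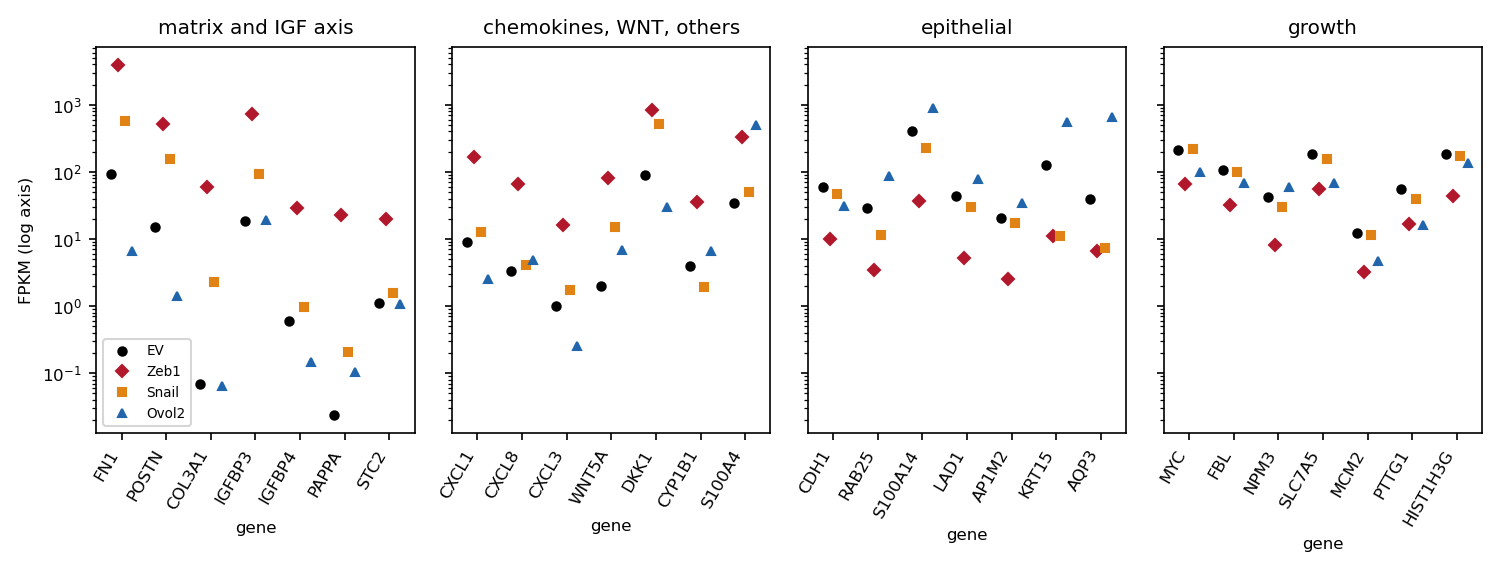
FPKM (log axis) of 28 genes in the 4 libraries, 1 point for each library. IGFBP4, PAPPA, STC2, CXCL1, CXCL8 and CXCL3 stand apart with Zeb1 alone, DKK1 stands above the empty vector with Zeb1 and Snail, and the 7 growth genes are lower with Zeb1 while those with Snail lie near the empty vector.

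Chemokines that attract neutrophils were higher. CXCL1, CXCL8, CXCL3 and CXCL2, all ligands of the receptor CXCR2, stood at 9.05 against 168, 3.29 against 66.8, 1.01 against 15.9 and 10.1 against 25.8 FPKM. With Snail CXCL1 and CXCL8 stood at 12.6 and 4.104. The interleukin-1 family was mixed: IL1A and IL18 were lower at 12.1 against 3.83 and 114 against 49.4 FPKM, and IL1B stood at 5.61 against 10.2. Of 22 kept members 7 were higher and 2 lower. CSF1, the growth factor of macrophages, stood at 6.42 against 20.4 and CD14, a co-receptor for bacterial lipopolysaccharide, at 1.46 against 16.97. Of 18 kept genes of complement and coagulation inhibition 6 were higher, among them C3 at 55.6 against 125 and C1S at 7.97 against 18.5 FPKM. Prostanoid genes differed by isoform. PTGS1, the constitutive cyclooxygenase, stood at 1.54 against 11.9 FPKM and PTGS2, the inducible one, at 6.41 against 2.42, and the cytosolic phospholipase PLA2G4A that feeds both was lower at 3.900 against 0.851. The receptors PTGFR and PTGER2 stood at 0.00632 against 2.87 and at 0.0416 against 2.21 FPKM, and S1PR3, a sphingosine-1-phosphate receptor, at 0.783 against 13.7. Interferon-stimulated genes were mostly within 2-fold (29 of 35), with 5 higher on the deposited scale and 10 when scaled to the total without the highest genes. STAT2 and IFI6 were higher, at 14.2 against 39.5 and 4.37 against 11.6, and OAS3 lower, at 5.62 against 1.62.

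Signalling ligands showed few family-wide shifts and several single large ones. WNT5A, a ligand of noncanonical WNT signalling, stood at 2.01 against 82.4 FPKM and DKK1, a secreted WNT inhibitor, at 89.6 against 845. SFRP1, also a WNT inhibitor, was lower at 46.3 against 12.3, and so were the ligands WNT4 and WNT7A, at 2.45 against 0.383 and 1.93 against 0.240. In the TGF-beta family 9 of 44 kept genes were higher. FSTL1, a follistatin-like protein, stood at 36.5 against 226 FPKM, INHBA, the activin A subunit, at 0.608 against 6.895, and BAMBI, a decoy receptor, at 3.78 against 21.2. ID1, a target of bone morphogenetic proteins, was the one that was lower, at 84.3 against 22.3.

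EGF family genes were lower in 5 of 14 kept members and none was higher on the deposited scale, though 1 was after centring. Of the 5, 2 were under 1 FPKM with Zeb1 and so could not have been counted as higher. EGFR stood at 55.6 against 22.5 FPKM, the ligand EPGN at 13.4 against 2.88, and CBLC, an epithelial ubiquitin ligase of the receptor, at 13.3 against 1.04, while ERRFI1, a feedback inhibitor, stood at 61.2 against 119. Other receptor kinases included ROS1, at 34.9 against 191 FPKM, and NRP1, the co-receptor of semaphorins and VEGF, at 1.997 against 13.6. Of the ligands in that list KITLG, ANGPT1 and PDGFC were higher, at 5.19 against 19.7, 3.46 against 11.99 and 13.4 against 39.2, while PDGFA stood at 8.903 against 7.19 and PDGFB at 1.12 against 1.23, within 2-fold. DDR1, the epithelial collagen receptor kinase, was lower at 47.4 against 19.8. FGFBP1, which releases FGFs from matrix, stood at 18.4 against 2.24 and FGF2 at 3.03 against 10.3.

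NOTCH receptors lay on opposite sides. NOTCH1 stood at 33.1 against 11.4 FPKM and NOTCH2 at 14.9 against 50.7, and the ligands JAG2 and DLL1 were lower at 29.3 against 5.94 and 6.98 against 1.19. Ephrins and Eph receptors were lower in 5 of 14 kept genes, none higher, with EFNB1 at 30.4 against 8.24 and EPHB2 at 15.9 against 4.14. The count was 4 when scaled to the total without the highest genes or 3 after the length correction. Of the 5, 1 was under 1 FPKM with Zeb1 and so could not have been counted as higher. SEMA3C was higher at 64.3 against 265 and SEMA3F lower at 37.1 against 15.6. Of the targets of YAP and TAZ, coactivators that respond to cell spreading, 9 of 27 kept genes were higher. CTGF and CYR61 stood at 33.1 against 142 and at 48.9 against 123.2 FPKM, and AJUBA and FAT2 at 57.5 against 30.9 and 19.2 against 3.04.

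The cytoskeleton was higher chiefly in its contractile part. Of 52 kept actomyosin and focal contact genes 15 were higher and 3 lower. MYL9, a myosin light chain, stood at 6.85 against 51.6 FPKM, ACTA2, smooth muscle actin, at 2.27 against 19.99, and TPM2, a tropomyosin, at 113 against 315. Paralogues lay on opposite sides: FERMT1, the epithelial kindlin, stood at 17.6 against 3.57 and FERMT2 at 11.5 against 48.9, and TNS4 at 72.5 against 8.68 and TNS3 at 20.8 against 64.5. ACTB and ACTG1, the cytoplasmic actins, stood at 1469 against 2261 and at 1258 against 1740.3 FPKM. VIM, the mesenchymal intermediate filament, stood at 12.6 against 181 and the lamin LMNB2 at 26.1 against 11.9. Tubulins had no member higher and 4 of 19 lower on the deposited scale, and 1 when scaled to the total without the highest genes. MAP2, a neuronal microtubule protein, was higher at 1.66 against 19.7 FPKM, with Snail at 10.5. Caveolar genes lay within 2-fold in 9 of 10 cases, CAV1 at 231 against 161.

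Cholesterol synthesis was lower. Of 27 kept genes of cholesterol synthesis and LDL uptake 13 were lower, none was higher and the median was -0.98. SQLE, which epoxidises squalene, stood at 36.9 against 12.9 FPKM and DHCR7, of the last steps of the pathway, at 30.99 against 8.52. In the list of fatty acid and sphingolipid synthesis 4 of 28 kept genes were lower and 2 higher, and its median changed sign with the scaling. FASN and SCD, of fatty acid synthesis, stood at 47.1 against 13.97 and at 88.7 against 27.6. The count of lower cholesterol genes was 7 when scaled to the total without the highest genes. Of 195 kept solute carriers 18 were lower and 6 higher, shares near those of all genes, and 10 and 14 when scaled to the total without the highest genes. The lower ones included amino acid importers. SLC1A5, the glutamine carrier, stood at 70.7 against 17.4 FPKM, and SLC7A5 and SLC3A2, which form the leucine exchanger, at 186 against 54.7 and 193 against 64.3. SLC7A2, a carrier of cationic amino acids, was higher at 3.14 against 14.3. Glycolysis and hypoxia genes lay within 2-fold in 35 of 39 cases.

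Redox and hormone enzymes differed both ways. GSTP1, a glutathione transferase, stood at 899 against 237 FPKM and TXN, thioredoxin, at 312 against 110.0. TXNRD1, which reduces thioredoxin, was higher at 56.1 against 169.9, and so were AKR1B1 at 125 against 479 and the ferritin chain FTH1 at 639 against 1948. CYP1B1, a steroid and hydrocarbon hydroxylase, stood at 3.91 against 35.1 FPKM, and CYP1A1 at 2.16 against 0.675. The retinoid-binding protein CRABP2 was lower at 18.6 against 2.59, and RARRES1, a retinoic acid-responsive gene, higher at 1.62 against 10.7. Metallothioneins, which bind zinc and copper, stood at 1419 against 760.1 FPKM for MT2A, 644 against 307 for MT1E and 321 against 154 for MT1X. None of these 3 was past 2-fold when scaled to the total without the highest genes. Of 24 kept genes of antigen presentation by MHC class I 23 lay within 2-fold, and TAP2, a subunit of the peptide transporter, was lower at 13.3 against 4.83. HLA genes share sequence with their paralogues and pseudogenes, so their single values are uncertain.

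Growth genes were lower by small amounts across whole families. MYC, a driver of ribosome production, stood at 211 against 65.3 FPKM, with Snail at 223. Immediate early and MAPK genes were lower in 9 of 37 kept members, among them JUN at 51.8 against 19.5 and DUSP6 at 15.5 against 6.301. Of the 9, 2 were under 1 FPKM with Zeb1 and so could not have been counted as higher. Of 69 kept ribosome biogenesis factors, a list added after values were seen, 16 were lower and none higher, 11 lower after centring and 7 when scaled to the total without the highest genes. NPM3 stood at 42.1 against 8.12 FPKM, FBL, the methyltransferase of ribosomal RNA, at 105.7 against 32.5, and BOP1 at 14.2 against 4.61. Cytosolic ribosomal protein genes had 13 of 80 members lower, but 80 of 80 had a log2 ratio below 0, with a median of -0.77. RPS6 stood at 1755 against 861 FPKM. Mitochondrial ribosomal proteins and respiratory chain genes had medians of -0.57 and -0.67. No proteasome subunit of 42 was past 2-fold, and their median was -0.50. Many ribosomal protein genes have near-identical processed copies, so their single values are uncertain.

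Cell cycle genes were lower in 15 of 62 members for replication and 13 of 83 for mitosis, with none higher on the deposited scale. MCM2, of the replicative helicase, stood at 12.1 against 3.22 FPKM, TK1, thymidine kinase, at 17.3 against 4.69, and PTTG1, securin, at 55.7 against 16.7. CCND1, cyclin D1, stood at 21.2 against 6.17, and the inhibitor CDKN1A at 77.1 against 87.6. Replication-dependent histone genes, which are transcribed in S phase, were lower in 38 of 55 kept members with a median of -1.38. HIST1H3G stood at 182 against 44.4 FPKM and with Snail at 170.3. Members of each histone type are near-identical in sequence, so reads can be shared among them. Medians of all these growth families stayed below 0 under each of the 4 scalings, but the counts past 2-fold were smaller. Cytosolic ribosomal protein genes past 2-fold numbered 3 after centring and 1 when scaled to the total without the highest genes. For mitosis the counts were 7 and 4, for replication 10 and 8, and for histones 37 and 33. Of all 11922 genes 738 and 609 were lower under these scalings. The mitosis counts lay near those shares and the cytosolic ribosomal protein counts below them, while replication and histone counts lay above.

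The shortest transcripts were lower more often than the rest. Genes were put into 10 equal groups by transcript length. In the group of shortest transcripts (median 506 bases) 20.6% were lower, against 6.29% in the next group and 5.84% in that of the longest (median 3989 bases). Median log2 ratios in these 3 groups were -0.32, -0.064 and 0.13. Small nucleolar and Cajal body RNAs, which guide modification of ribosomal and spliceosomal RNA and mostly lie in introns of host genes, were lower in 98 of 219 kept members. Of the 98, 9 were under 1 FPKM with Zeb1 and so could not have been counted as higher. SNORD15A stood at 101 against 12.3 FPKM and SNORA63 at 2914 against 935. After subtraction of the running median of genes of like length 199 of them had a length, of which 39 were lower and 13 higher, against 3 higher before, and their median went from -0.94 to -0.31. After that correction 5.63% of all genes with a length were higher and 6.42% lower, and after centring 6.21% and 6.19%. Most of these RNAs lie inside a host gene, so their reads cannot be told apart from those of unspliced host RNA. Histones, with a median transcript length of 488 bases, kept 28 lower members after the correction.

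**Figure D5:**
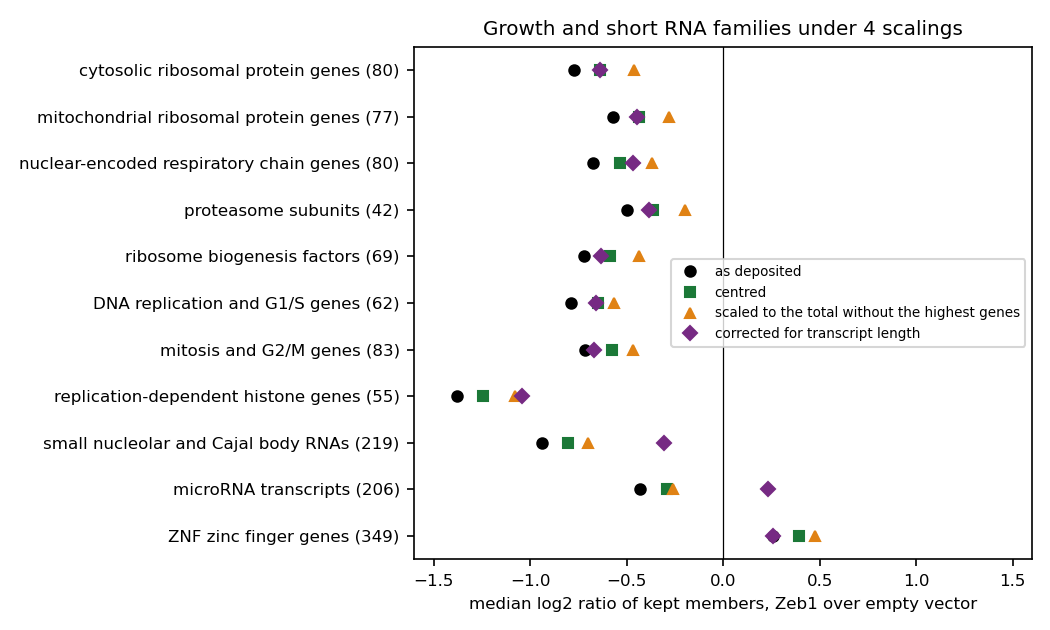
Median log2 ratio of Zeb1 over empty vector (horizontal) for 11 growth and short RNA families (number of kept genes in brackets) as deposited, after centring, after scaling to the total without the highest genes and after correction for transcript length. The 9 growth and small nucleolar families lie below 0 in all 4, microRNA transcripts change sign with the length correction, and zinc finger genes lie above 0 in all 4. For small nucleolar and microRNA rows the length correction rests largely on these rows themselves.

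In the opposite direction, ZNF zinc finger genes, a family of mostly low-level repressors, lay a little higher as a group: 261 of 349 kept members had a log2 ratio above 0 and the median was 0.26, against -0.087 for all genes. Past 2-fold were 5 higher and 5 lower on the deposited scale, 11 and 3 after centring, and 19 and 3 when scaled to the total without the highest genes. Over all 11922 genes these counts were 539 and 1012, 740 and 738, and 989 and 609. A smaller share of ZNF genes than of all genes was thus past 2-fold, either way and under each scaling. Each scaling kept the pseudocount of 1 FPKM, which shrinks the ratios of such low-level genes, so this share says little about the family. ZNF608 had the largest difference, at 6.38 against 22.97 FPKM.

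Among microRNA loci the one with a known epithelial role and a clear signal was MIR205. Its host transcript MIR205HG stood at 141 against 42.1 FPKM, with 198 for Snail and 88.5 for Ovol2. The MIR205 row, whose span lies inside the host gene on chromosome 1, stood at 26.9 against 6.73, so reads of the microRNA and its host cannot be told apart. The mature RNA, which silences ZEB1 and ZEB2 and shares no seed with the miR-200 family, is shown beside miR-141, a member of that family, with the seeds (bases 2 to 8) in capitals, both from RefSeq.
hsa-miR-205-5p: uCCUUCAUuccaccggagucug
hsa-miR-141-3p: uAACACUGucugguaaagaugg

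The MIR141 row stood at 1.18 against 0.256 FPKM, and MIR200A, MIR200B, MIR200C and MIR429 were under 0.5 FPKM in both libraries, so no difference at these loci could be read. Mature microRNAs themselves were not measured by this assay. Of 206 kept microRNA rows 38 were lower and 4 higher, and after the length correction 13 were lower and 31 higher. Of the 38, 24 were under 1 FPKM with Zeb1, and of the 4, 2 were under 1 FPKM with the empty vector. The median of all 206 changed sign with the correction, from -0.43 to 0.23. Since the correction there rests largely on these short rows themselves, that change says little about length. MIR663A stood at 2828 against 463 FPKM and its host MIR663AHG at 489 against 90.4. Of 96 kept long intergenic and host RNAs 9 were higher and 7 lower, 15 and 6 after centring, and 20 and 6 when scaled to the total without the highest genes. Of the 9, 4 were under 1 FPKM with the empty vector and so could not have been counted as lower. The share lower was near the 8.49% of all genes. LINC01279 stood at 6.93 against 63.7 FPKM and DANCR at 55.4 against 20.3. MALAT1 stood at 627 against 1189.6 FPKM, within 2-fold.

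Several genes outside any list were among the 40 highest. PEG10, a retrotransposon-derived gene, stood at 5.41 against 81.8 FPKM, FBXO32, a ubiquitin ligase subunit of muscle atrophy, at 14.8 against 195, and GAS1, a growth arrest protein and hedgehog co-receptor, at 5.05 against 66.6. RERG, a RAS-like inhibitor of growth, stood at 1.53 against 27.97, GNG11, a G protein subunit, at 1.26 against 30.2, and CRYAB, a small heat shock protein, at 0.965 against 16.7. With Snail FBXO32 and PEG10 stood at 22.9 and 6.74 FPKM. With Ovol2 CRYAB stood at 26.4. Among the 40 lowest were 8 small nucleolar RNAs and 3 microRNA or host rows. The 40 lowest also held TINAGL1, a matricellular protein of basement membranes, at 68.9 against 9.04, TREM2, a lipid receptor of myeloid cells, at 17.2 against 1.64, and CSTA, an epidermal protease inhibitor, at 133.5 against 24.4 FPKM. TNNI2, a troponin of fast skeletal muscle, stood at 67.9 against 8.36, SNCG, gamma-synuclein, at 28.8 against 4.36, and HCAR2, the receptor for niacin, at 10.4 against 0.847.

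Markers of other cell types were near 0 with few exceptions. Of 20 immune markers 3 were kept and their summed level was 4.74 against 22.9 FPKM, carried by CD14, and the part of these markers in the results was not tested. PTPRC and TYROBP were at 0 with the empty vector and at 0.0177 and 0.0240 with Zeb1. Of 14 endothelial markers 1 was kept, with a sum of 2.83 against 2.39, and PECAM1 stood at 0.0439 against 0.0338. Of 18 neural and muscle markers 2 were kept, with a sum of 25.8 against 37.5 carried by TUBB3 and MAP2, and DES stood at 0 against 0.0362. All 16 kept genes of the list of basal mammary markers were lower, 15 when scaled to the total without the highest genes. This list, too, was chosen with earlier results known. It leaves out the contractile genes ACTA2 and MYL9, which were higher, with log2 ratios of 2.68 and 2.74. KRT5 and KRT17 were still at 771 and 1571 FPKM with Zeb1.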

How the data were processed

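RNA from sorted MCF10A cells was sequenced with 1 library in each group. Per the submitters' processing notes, the authors used TopHat, Cufflinks and Cuffdiff with build hg19 and deposited FPKM values for each gene, and their table also holds their own p-values. No versions are given in the sources used here. The deposited p-values were used in 1 alternative only, since with 1 library in a group they do not measure spread between replicates. The 43 repeated rows were summed by symbol, a pseudocount of 1 FPKM was added, and genes under 1 FPKM in both libraries were left out. Depth was estimated from the steps between low values. Lists of genes were taken from symbol patterns and textbook membership.

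The members, the lists and the choice of this comparison were made with earlier results of these data known. Genes were named by rule: the 40 highest and 40 lowest at 5 FPKM or more, in each list the 8 members that differed most, the most abundant 3, members that go against their list, and genes near 0 in 1 library. AJUBA, ATP1B3, CCDC80, CDKN1A, DANCR, DUSP6, IL1B, MALAT1, SCNN1A, SNAI1, SNAI2, TNS3 and the microRNA rows were chosen after their values were seen. Transcript lengths came from GENCODE 29 and were corrected for by a running median over 501 genes, and promoters and mature microRNAs came from RefSeq. Python 3.11.15, numpy 2.4.6 and pandas 2.3.3 were used, and the ratio and motif steps were checked on simulated data.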

Additional observations from a re-analysis of the deposited data

How the results depend on the processing

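The counts of genes past 2-fold depended on the pseudocount and the scaling. They were 885 higher and 1541 lower with a pseudocount of 0.1 FPKM, and 224 and 416 with one of 5 FPKM. When both libraries were scaled to the same total without the highest genes they were 989 and 609. Under the other 8 settings both counts lay within 1.5 times the main ones: 394 to 740 higher and 725 to 1012 lower. These were centring, upper quartile scaling, a 5 FPKM filter, no filter, the highest row of each symbol, short RNAs left out, an adjusted p below 0.05 in the authors' deposited table and the length correction. With no filter the counts could not differ from the main ones, because past 2-fold with a pseudocount of 1 already requires 1 FPKM or more. The share of promoters with CACCTG among lower genes was 40% with a 4-fold rule, against 24.7%, and 22.6% to 27.5% under the other alternatives. A pseudocount or a filter cannot reverse a sign, and the scalings moved the median log2 ratio only from -0.087 to at most 0.18. It was thus largely fixed in advance that no named gene past 2-fold would change direction. None did under any setting that gave it a value. All 594 had one except with the 5 FPKM filter (490 genes) and the length correction. Those no longer past 2-fold numbered 166 with a pseudocount of 5 FPKM, 67 when scaled to the total, 39 after centring, 32 after the length correction and 26 with upper quartile scaling. Of 158 counts of list members, 78 changed by more than 1.5 times with a pseudocount of 5 FPKM, 51 when scaled to the total and 26 after centring. Chosen after seeing the data were the corrections to list membership, the ribosome biogenesis list, the ranges of the log2 ratio with CAGCTG, the length correction of lists and named genes, and matching of promoters by symbol alone. No paired analysis was possible because each group held 1 library, and no library could be left out. At a roughly estimated 29 to 34 fragments for 1 FPKM and 1 kilobase, genes near 1 FPKM with short transcripts rest on few fragments.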
